A study of Mus musculus with 14 samples.

Results

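Homeostatic microglia identity genes are a set of 9 genes that mark resting microglia, the resident macrophages of the brain. They are P2ry12, P2ry13, Gpr34, Cx3cr1, Tmem119, Siglech, Sall1, Olfml3 and Sparc, taken by name from 21883 protein-coding genes of the mouse build mm10. All 9 were found in the gene table, and all 9 had enough H3K27ac summits to be ranked in each comparison made here. Acetylation of lysine 27 of histone H3 (H3K27ac), found at promoters and enhancers in use, had been profiled by CUT&Tag, an assay in which a transposase tethered to an antibody tags the DNA around the mark. CD11b+ tumour-associated macrophages had been isolated by FACS from brain tumours that human T387 glioblastoma cells had formed in NSG mice, which are immunodeficient and lack mature lymphocytes. One group of mice was given pracinostat, an inhibitor of histone deacetylases, at 30 mg/kg by oral gavage on 4 occasions per week, over 3 weeks that began on day 7 of the tumour. The other group was given the DMSO-containing solvent on the same schedule. A label on the drug's preparation states 3 mg/kg instead, so the dose is uncertain. There were 4 pracinostat and 3 DMSO libraries with H3K27ac antibody, and 4 and 3 libraries with an IgG control antibody. All groups carried the same xenograft.

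Microglia hold their identity through signals of the brain, TGF-beta among them, and through transcription factors such as PU.1 and Sall1 that act at enhancers of the genes described here. Several of these genes encode receptors for nucleotides, lipids and chemokines by which microglia survey the tissue, and they are known to be turned down when microglia are activated by injury, disease or tumours. Macrophages that enter the brain from the blood carry CD11b as well, and express most of these genes at low levels or not at all. Histone deacetylases remove acetyl groups from histones, and inhibitors such as pracinostat block that removal.

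The 250 bases before the start of transcription are shown for 4 of the genes, P2ry13 and Siglech because their loci differed most between the treatments, and P2ry12 and Cx3cr1 because their strongest nearby summits lay close to the start. P2ry12 (chr3:59262986-59263235, minus strand), P2ry13 (chr3:59210883-59211132, minus strand), Cx3cr1 (chr9:120068297-120068546, minus strand) and Siglech (chr7:55767934-55768183, plus strand) are credited to RefSeq, build GRCm38.p6. They are written along the gene's own strand, and capitals mark the letters GAGGAA, the core bound by PU.1, or GGAAGT, a core of the ETS family, on either strand.
P2ry12: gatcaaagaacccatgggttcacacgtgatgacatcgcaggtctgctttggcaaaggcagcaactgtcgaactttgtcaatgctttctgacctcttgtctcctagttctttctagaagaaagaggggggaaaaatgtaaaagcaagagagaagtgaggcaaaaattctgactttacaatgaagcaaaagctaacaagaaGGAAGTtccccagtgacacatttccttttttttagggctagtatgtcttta
P2ry13: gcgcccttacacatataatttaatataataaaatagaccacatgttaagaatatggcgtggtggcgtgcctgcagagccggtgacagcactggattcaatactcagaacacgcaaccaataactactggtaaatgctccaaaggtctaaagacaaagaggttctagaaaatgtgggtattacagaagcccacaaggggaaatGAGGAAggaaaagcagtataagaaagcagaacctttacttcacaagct
Cx3cr1: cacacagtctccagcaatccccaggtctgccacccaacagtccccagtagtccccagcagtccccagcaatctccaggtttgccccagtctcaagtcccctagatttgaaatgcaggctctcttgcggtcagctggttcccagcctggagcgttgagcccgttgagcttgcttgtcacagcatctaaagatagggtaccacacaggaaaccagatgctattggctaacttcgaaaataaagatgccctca
Siglech: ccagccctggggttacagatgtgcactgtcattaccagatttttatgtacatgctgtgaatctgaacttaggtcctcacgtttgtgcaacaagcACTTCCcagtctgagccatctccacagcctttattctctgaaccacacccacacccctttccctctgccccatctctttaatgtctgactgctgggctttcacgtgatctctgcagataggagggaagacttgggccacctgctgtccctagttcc
The letters GAGGAA stood before P2ry13 and GGAAGT before P2ry12, and Siglech held GGAAGT on the opposite strand, read as ACTTCC. Neither stood in these 250 bases of Cx3cr1. Promoter entries were present for 7 of the 9 genes, Sall1 with 3 starts, which gave 9 promoters. GAGGAA was in 1 of the 9 and in 22.2% of 21262 mouse promoters, GGAAGT was in 3 of the 9 and in 20.4%, and the AP-1 letters TGANTCA were in none of the 9 and in 6.13%. GAGGAA and GGAAGT share the letters GGAA and can overlap. All motifs were searched on both strands. The promoters of the genes other than Sall1 were poor in CpG, with 2 to 6 in 250 bases against a median of 10 over all promoters. Such low numbers are common, as 37.8% of all promoters held at most 5 CpG. The 3 Sall1 promoters held 13, 25 and 30 CpG.

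The summits of 1 library stood apart, and this touches most values below. DMSO replicate 2 had 53503 H3K27ac summits, and 65.3% of them shared its lowest score, while the other 6 libraries had 208401 to 291042. IgG libraries had 2194 to 10186 summits with pracinostat and 9244 to 18517 with DMSO. Because a summit's score grows with sequencing depth, scores were compared only as ranks within a library. A percentile of 100 is the highest score among ranked genes, and genes without a summit tie at the bottom. That tie lies at a percentile of 19.0 in DMSO replicate 2, where 37.95% of ranked genes had no summit, and at 3.43 to 5.61 in the other 6. Gene positions below are those of mm10. The main differences are given with and without DMSO replicate 2. Numbers of reads were not used here. The labels call the samples biological replicates without naming animals, so each p-value measures only how much these samples vary, which may be technical.

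H3K27ac summits stood at the ends of all 9 genes in each pracinostat library. Counting summits within 1 kb of either gene end, the 4 pracinostat libraries had 9, 9, 9 and 9 of the 9 genes marked, and the 3 DMSO libraries had 8, 5 and 8. The DMSO genes without an end summit were Gpr34 in replicate 1, P2ry13, Gpr34, Siglech and Sall1 in replicate 2, and Sparc in replicate 3. Over all protein-coding genes too, DMSO replicate 2 had fewer ends marked, 38.8%, against 57.5 to 61.6% in the other 6 libraries. In a sorted bulk sample, fewer cells of a type and less acetylation per cell cannot be told apart. P2ry12, Tmem119, Cx3cr1 and Olfml3 were marked in all 7 H3K27ac libraries, which is 4 of 9 genes beside 34.7% of all protein-coding genes.

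IgG summits at these gene ends were few. P2ry12 and Tmem119 had an end summit in pracinostat IgG replicate 2 and Olfml3 in DMSO IgG replicate 2, so 3 of 9 genes had an end summit in at least 1 of the 7 IgG libraries, beside 8.67% of all genes. Cx3cr1 was therefore the single gene of the set marked in all 7 H3K27ac and in no IgG library, a state found in 31.4% of all genes. Over the wider locus, which is the gene span plus 50 kb on both sides, all 9 genes had a summit in at least 1 IgG library, as did 88.8% of all genes. The locus of P2ry13, which overlaps that of P2ry12, was left out of the next counts. The loci of the other genes together held 482 to 522 H3K27ac summits in pracinostat libraries and 120 to 523 in DMSO libraries. With IgG they held 1 to 4 in pracinostat libraries and 3 to 12 in DMSO libraries.

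The rank of the highest end summit was compared between pracinostat and DMSO for 13491 genes, those with an end summit in at least 3 of the 7 libraries. All 9 microglia genes had a higher fitted mean with pracinostat, beside 48.6% of all ranked genes, and none passed the test. The genes were chosen with earlier results of these data known, so their shared direction is no independent evidence. Differences are in normal-score units, in which 1 unit is about 1 SD of all ranked genes. The median of the 9 differences was 0.36, beside -0.01 over all genes. With limma and Benjamini-Hochberg adjustment, 0 of 13491 genes (0.0%) passed an adjusted p of 0.05, and 370 genes higher with pracinostat and 462 lower had an unadjusted p under 0.05. The higher ones were 2.74% of genes, and none of the 9 was among them. Without DMSO replicate 2 the fitted mean stayed higher with pracinostat for all 9 genes. It was higher for 7 of 9 without DMSO replicate 1, without DMSO replicate 3 or without pracinostat replicate 1, and P2ry12, Olfml3 and Sparc were the genes that turned. In the same libraries the ranked neutrophil markers averaged 17.8 to 28.1 at gene ends with pracinostat and 29.7 to 44.4 with DMSO, and their part in these differences was not tested.

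**Figure D1:**
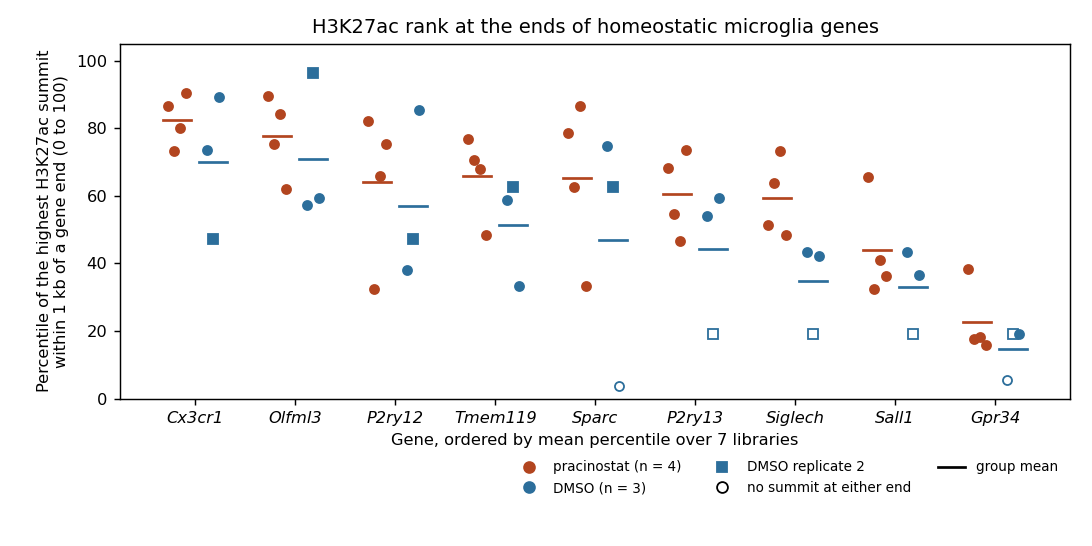
Percentile (vertical axis, 0 to 100) of the highest H3K27ac summit within 1 kb of a gene end, for each of the 9 genes (horizontal axis, ordered by mean over 7 libraries), with 4 pracinostat libraries left of 3 DMSO libraries. Points are libraries, hollow points have no end summit, squares are DMSO replicate 2 and lines are group means. The pracinostat mean is above the DMSO mean for each gene, and only at Siglech do the libraries not overlap.

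Among the receptors, Cx3cr1 (chr9:120048683-120068296) ranked highest. It encodes the receptor for fractalkine, the chemokine by which neurons signal to microglia. Its percentiles were 86.5, 73.3, 79.9 and 90.3 in pracinostat libraries, against 73.7, 47.3 and 89.4 in DMSO libraries. DMSO replicate 2 was the low library, and its 47.3 is the level shared by genes whose summit had the lowest score there. The other 2 DMSO libraries lay among the pracinostat ones. The difference of 0.36 ± 0.40 (SE) had an adjusted p of 0.93 in limma. Without DMSO replicate 2 it was 0.03. In the 6 libraries with a summit near the start printed above, the strongest lay between -283 and 78 bases of it.

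P2ry12 (chr3:59216271-59262985) encodes the ADP receptor that steers microglial processes towards injury, and it had percentiles of 82.1, 32.5, 65.8 and 75.4 with pracinostat, against 38.1, 47.3 and 85.3 with DMSO. The groups overlapped over nearly their whole range, with pracinostat replicate 2 the lowest and DMSO replicate 3 the highest library. In DMSO replicate 2 the P2ry12 summit too had the lowest score of the library. The P2ry12 difference was 0.16 ± 0.39 (adjusted p = 0.97 in limma), and 0.02 without DMSO replicate 2. The strongest summit within 1 kb of the start printed above lay between 95 and 158 bases downstream of it in 5 of 7 libraries, and at -715 and -860 bases, upstream of it, in pracinostat replicates 3 and 2.

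P2ry13 (chr3:59207892-59210882), another ADP receptor of microglia, lies 5389 bases from P2ry12. It had percentiles of 68.1, 54.5, 46.6 and 73.4 in pracinostat libraries, against 54.1, 19.0 and 59.2 in DMSO libraries, where the 19.0 is DMSO replicate 2 with no summit. The other 2 DMSO libraries lay within the pracinostat range. The difference was 0.46 ± 0.37 (adjusted p = 0.89), and 0.11 without DMSO replicate 2.

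Gpr34 (chrX:13622650-13640859), a receptor for lysophosphatidylserine, had the lowest end rank of the set. Its percentiles were 38.3, 17.7, 18.3 and 15.9 with pracinostat, against 5.61, 19.0 and 19.0 with DMSO. Replicate 1 stood above the other pracinostat libraries, and DMSO replicates 1 and 2 had no summit. The difference was 0.33 ± 0.37 (adjusted p = 0.93), and 0.45 without DMSO replicate 2.

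Siglech (chr7:55768154-55779448) was the gene of the set whose end ranks did not overlap between the groups. It encodes a sialic acid-binding lectin of mouse microglia that plasmacytoid dendritic cells carry too. The pracinostat percentiles were 51.4, 63.7, 73.3 and 48.4, against 43.3, 19.0 and 42.3 in DMSO libraries, with no summit in DMSO replicate 2. All 4 pracinostat libraries lay above all 3 DMSO libraries, as they did for 2.88% of all ranked genes. The difference was 0.66 ± 0.35, with an unadjusted p of 0.069 and an adjusted p of 0.82 in limma. Without DMSO replicate 2 the difference was 0.42. Without that library 6.20% of all genes had every pracinostat library higher, and among the 9 genes these were Siglech and Olfml3.

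Tmem119 (chr5:113793729-113800396) encodes a transmembrane protein that marks microglia and sets them apart from other brain macrophages. Its percentiles were 76.9, 70.6, 67.8 and 48.4 with pracinostat, against 58.6, 62.6 and 33.3 with DMSO. In 3 of 4 pracinostat libraries it lay above all DMSO libraries, and in replicate 4 it lay between them. The difference was 0.39 ± 0.37 (adjusted p = 0.92), and 0.53 without DMSO replicate 2.

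Sall1 (chr8:89027242-89044162) is the transcription factor of the set, needed in mice to keep microglia from taking on an inflammatory state. Its ends had percentiles of 65.7, 32.5, 41.0 and 36.2 in pracinostat libraries, against 43.3, 19.0 and 36.5 in DMSO libraries. The high library was pracinostat replicate 1, and DMSO replicate 2 had no summit. The difference was 0.31 ± 0.35 (adjusted p = 0.94), and 0.10 without DMSO replicate 2.

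Olfml3 and Sparc encode secreted proteins. Olfml3 (chr3:103735394-103738001), an olfactomedin-domain protein made by microglia, had 89.7, 75.2, 84.1 and 61.9 with pracinostat, against 57.2, 96.3 and 59.2 with DMSO. Here DMSO replicate 2 was the highest of the 7 libraries, and the other 2 DMSO libraries lay below all pracinostat libraries. The difference was 0.08 ± 0.41 (adjusted p = 0.99), and 0.60 without DMSO replicate 2. At a site of the 3′ end, chr3:103734633-103735591, the difference was 0.37 ± 0.48 (adjusted p = 0.93). At another site within 1 kb of the 3′ end, chr3:103735932-103736741, it was -0.26 ± 0.51 (adjusted p = 0.95), with mean percentiles of 49.5 with pracinostat and 58.2 with DMSO. With the 5′ end alone, a comparison chosen after the data were seen, the difference was -0.54 ± 0.42 (adjusted p = 0.91), while over 500 bp windows at both ends it was -0.08. The sites at the ends of Olfml3 therefore had differences of either sign, none of which passed the test. The other 6 genes with a known start remained higher with pracinostat at the 5′ end alone, Siglech by 0.75 ± 0.37 (adjusted p = 0.80).

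Sparc (chr11:55394159-55420080), a glycoprotein of the extracellular matrix that endothelial cells and astrocytes also make, had 78.7, 62.6, 86.4 and 33.2 with pracinostat, against 74.6, 62.6 and 3.83 with DMSO. This range, 3.83 to 86.4, was the widest of the 9 genes. DMSO replicate 3 had no summit at its ends, and the other libraries overlapped. The difference was 0.71 ± 0.42 (adjusted p = 0.85), 1.00 without DMSO replicate 2 and -0.05 without DMSO replicate 3. The direction at Sparc therefore rests on DMSO replicate 3.

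Over all 7 libraries the order of mean end percentile was Cx3cr1 at 77.2, Olfml3 at 74.8, P2ry12 at 60.9, Tmem119 at 59.7, Sparc at 57.4, P2ry13 at 53.6, Siglech at 48.8, Sall1 at 39.2 and Gpr34 at 19.1. Windows at gene ends have the same length for every gene, so these levels can be set side by side. Each neighbouring pair in this order overlapped in its range over the libraries. Gpr34, whose highest library was at 38.3, lay wholly below Cx3cr1 and Olfml3, whose lowest libraries were at 47.3 and 57.2.

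The wider loci take in enhancers away from the gene ends, and here P2ry13 and Siglech stood apart from the other 7 genes in size of difference. The locus rank is the rank of the highest summit in the gene span plus 50 kb, among 19908 genes. In these loci 7 of 9 genes had a higher fitted mean with pracinostat, beside 49.5% of all genes, and the median difference was 0.04, beside -0.0039 over all genes. In limma 0 of 19908 genes (0.0%) passed, with 496 higher and 596 lower at an unadjusted p under 0.05.

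Siglech had locus percentiles of 74.0, 79.6, 92.6 and 78.6 in pracinostat libraries, against 47.0, 49.1 and 65.4 in DMSO libraries. P2ry13 had 56.7, 68.3, 88.3 and 50.5 with pracinostat, against 50.03, 23.7 and 44.7 with DMSO. At both genes every pracinostat library lay above every DMSO library, which 3.14% of all genes showed. None of the 7 others did so. The Siglech difference was 0.83 ± 0.33, with an unadjusted p of 0.019 and an adjusted p of 0.88. At P2ry13 it was 0.74 ± 0.32, with an unadjusted p of 0.027 and the same adjusted p. These are 2 of 9 genes with an unadjusted p under 0.05 and higher with pracinostat, beside 2.49% of all genes. Without DMSO replicate 2 the differences were 0.77 at Siglech and 0.53 at P2ry13, and P2ry13, Siglech and Olfml3 had every pracinostat library higher, beside 6.67% of all genes.

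The remaining 7 locus ranks differed by less than their SE. Tmem119 lay near the top of the scale, at 91.5 ± 8.09 with pracinostat (SD, n = 4) and 89.9 ± 0.745 with DMSO (SD, n = 3). So did Sparc, at 92.7 ± 6.75 with pracinostat and 89.3 ± 16.5 with DMSO. Cx3cr1 had 80.8 ± 6.62 with pracinostat and 73.7 ± 13.3 with DMSO, and P2ry12 had 72.8 ± 11.5 with pracinostat and 71.3 ± 13.9 with DMSO. Olfml3 had 59.2 ± 12.8 with pracinostat and 56.6 ± 29.1 with DMSO. Sall1 had 44.5 ± 15.04 with pracinostat and 43.6 ± 19.6 with DMSO, and Gpr34 had 38.1 ± 7.61 with pracinostat and 36.2 ± 1.87 with DMSO. For these 7 genes the fitted differences in normal scores ran between -0.07 at Sparc and 0.26 at Tmem119. At Sparc and at Olfml3, whose fitted difference was -0.01, the sign is opposite to that of the difference between the mean percentiles, which were higher with pracinostat. Without DMSO replicate 2 the fitted differences were 0.30 at P2ry12, 0.07 at Gpr34, 0.27 at Tmem119, 0.08 at Cx3cr1, -0.04 at Sall1, 0.50 at Olfml3 and 0.29 at Sparc, so that Sall1, Olfml3 and Sparc changed sign.

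The highest summit of a locus was often not the gene's own. At Sparc it lay at the end of Atox1 in 5 libraries and at the end of G3bp1 in 2. At Siglech it lay at the end of Tubgcp5 in 3 libraries and about 5 kb beyond the gene in 4. At Tmem119 it lay inside Iscu, Sart3 or Selplg in all 7. P2ry12 and P2ry13 both lie inside the long gene Med12l and their loci overlap. In 3 pracinostat libraries and in DMSO replicate 3 the highest summit of the P2ry13 locus was inside the body of P2ry12, so the P2ry13 value is not independent of P2ry12. Gpr34 lies inside Cask beside Gpr82, and its highest summit lay outside the gene in 6 of 7 libraries. Sall1 was the reverse case, with the highest summit in its own gene body in all 7 libraries and no other protein-coding gene in its locus. Cx3cr1 had it in its own body in 5 libraries and Olfml3 at its own ends in 5.

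With every summit within 1 kb of any protein-coding gene end left out, 19699 genes were ranked, and all 9 genes had a higher fitted mean with pracinostat, beside 49.2% of all genes. None of the 9 had pracinostat libraries wholly above the DMSO ones, beside 2.95% of all genes, and 0 of 19699 genes (0.0%) passed in limma. P2ry13 had distal percentiles of 76.8, 87.7, 95.3 and 66.2 with pracinostat, against 75.9, 33.1 and 67.8 with DMSO. Its difference was 0.75 ± 0.34, with an unadjusted p of 0.033 and an adjusted p of 0.72. The percentiles 76.8, 87.7 and 95.3 are also those of P2ry12 in the same libraries, so the P2ry13 value is not independent of P2ry12. The P2ry12 difference was 0.12 ± 0.34 (adjusted p = 0.98 in limma). Siglech had 85.8, 77.7, 97.1 and 91.2 with pracinostat, against 73.0, 56.1 and 83.8 with DMSO, a difference of 0.69 ± 0.33 with an unadjusted p of 0.047 and an adjusted p of 0.77. An unadjusted p under 0.05 with a higher pracinostat mean was found in 3.22% of all genes. DMSO replicate 2 was the lowest library at both, and without it the mean percentiles differed by 9.66 at P2ry13 and 9.56 at Siglech. For the other 7 genes the mean percentiles then differed by -1.41 at Sparc to 10.7 at P2ry12. With all 7 libraries these 7 genes had fitted differences of 0.06 to 0.26, and the median of the 9 was 0.14, beside -0.01 over all genes.

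**Figure D2:**
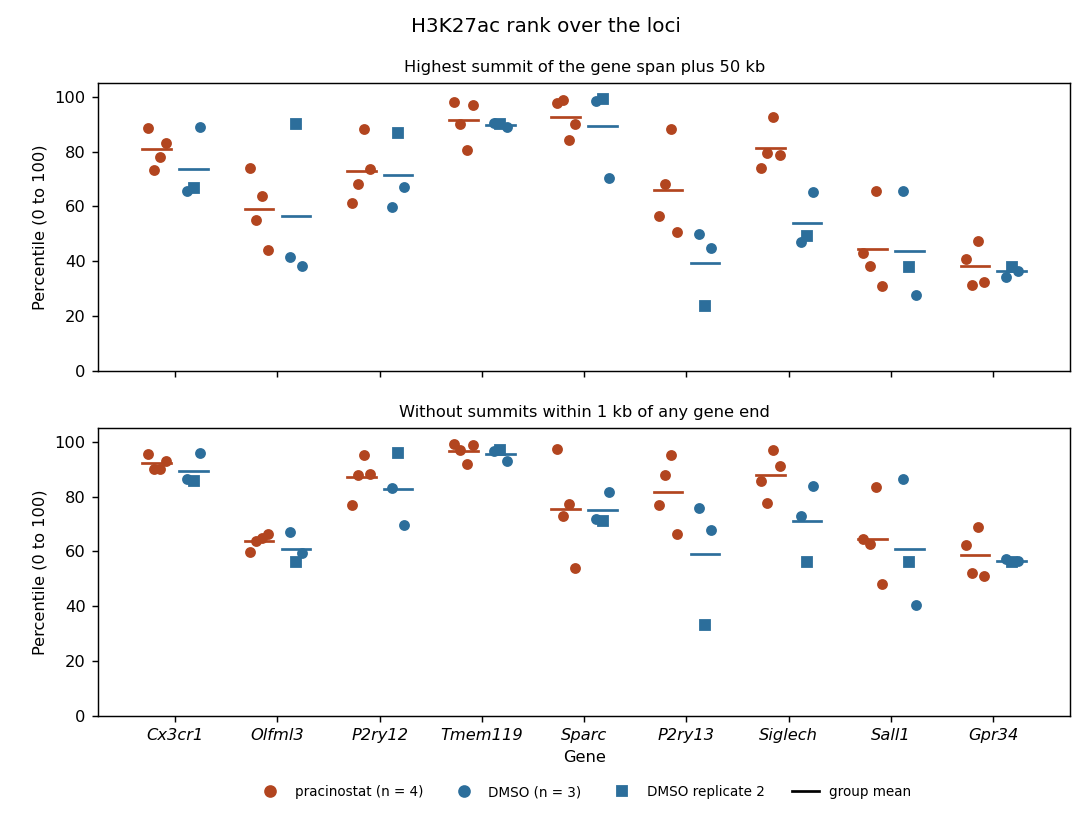
Percentile (vertical axes, 0 to 100) of the highest H3K27ac summit in the gene span plus 50 kb, with all summits (upper panel) and without those within 1 kb of a protein-coding gene end (lower panel), for the 9 genes (horizontal axis). Points are libraries (4 pracinostat left of 3 DMSO), squares are DMSO replicate 2 and lines are means. Siglech and P2ry13 are separated by treatment above and overlap below, and Tmem119 is near the top in each library.

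The number of strong summits was compared in lists of equal length, the 18000 highest-scoring summits of each library. Cx3cr1 and Tmem119 had the most. The Tmem119 locus held 21, 22, 27 and 16 with pracinostat, against 20, 15 and 25 with DMSO, and the Cx3cr1 locus held 21, 16, 13 and 17 with pracinostat, against 14, 13 and 18 with DMSO. The groups overlapped at both. Loci differ in length between 102.6 and 146.7 kb, so levels were set side by side per length: Tmem119 held 29.1 and Cx3cr1 25.9 ranked sites per 100 kb, P2ry13 12.6, P2ry12 12.3, Sparc 11.1, Siglech 7.19, Olfml3 4.87, Sall1 3.42 and Gpr34 2.54. The Tmem119 locus also holds Sart3, Iscu, Selplg and Coro1c or parts of them.

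The P2ry13 locus held 4, 3, 5 and 3 strong summits in pracinostat libraries, against 3, 0 and 2 in DMSO libraries. The lowest pracinostat libraries equalled the highest DMSO library, and DMSO replicate 2 had none. The difference was 1.35 ± 0.54 in log2(number + 0.5), with an unadjusted p of 0.019 and an adjusted p of 0.85 in limma, and 0.50 without DMSO replicate 2. P2ry12 held 8, 4, 9 and 7 with pracinostat, against 8, 2 and 5 with DMSO, a difference of 0.56 ± 0.38 (adjusted p = 0.90), and 0.08 without DMSO replicate 2. Siglech held 2, 4, 6 and 2 with pracinostat, against 2, 4 and 1 with DMSO, a difference of 0.52 ± 0.48 (adjusted p = 0.93), and 0.93 without DMSO replicate 2.

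The other 6 genes had fitted differences of 0.11 to 0.49 on this scale. The 0.49 was that of Olfml3, which held 4, 2, 3 and 2 with pracinostat, against 3, 6 and 0 with DMSO. Its plain mean was lower with pracinostat, at 2.75 with pracinostat and 3.0 with DMSO, and the fitted difference was 1.25 without DMSO replicate 2 and -0.60 without DMSO replicate 3. Without DMSO replicate 2 the fitted difference was 0.79 at Gpr34, -0.079 at Tmem119, 0.05 at Cx3cr1, 0.89 at Sall1 and 0.05 at Sparc. All 9 had a higher fitted number with pracinostat, beside 50.6% of 13429 genes, with a median of 0.38, beside 0.01 over all genes. P2ry13 was the only gene of the 9 with an unadjusted p under 0.05, beside 3.05% of all genes that were higher with pracinostat at that p. None of the 9 had pracinostat numbers wholly above the DMSO ones, beside 1.55% of all genes, and 0 of 13429 genes (0.0%) passed, with 409 higher and 332 lower at an unadjusted p under 0.05. The values of Gpr34 (0 or 1 summit in every library) and Sall1 (0 to 3) are too low to read a difference from.

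**Figure D3:**
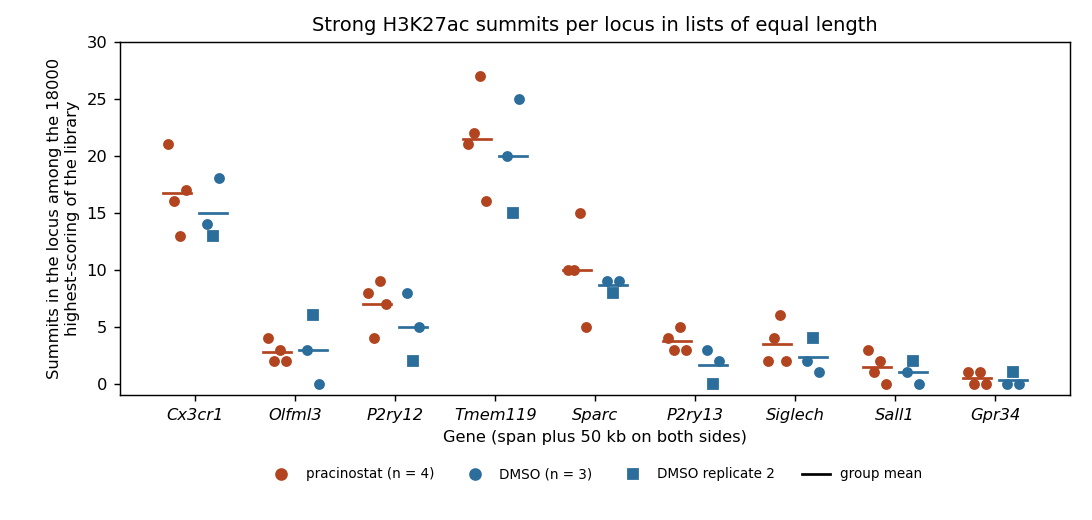
Number of H3K27ac summits in the gene span plus 50 kb (vertical axis) among the 18000 highest-scoring summits of each library, for the 9 genes (horizontal axis). Points are libraries (4 pracinostat left of 3 DMSO), squares are DMSO replicate 2 and lines are means. Tmem119 and Cx3cr1 hold 13 to 27 in each library, while Gpr34 holds 0 or 1.

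Single sites in these loci were then compared. Sites were the strong summits of the 7 libraries extended by 250 bp and merged, and 33558 were ranked. A site without a summit in a library tied at the bottom of that library. This tie lay at a percentile of 22.0 in DMSO replicate 2, 7.49 in DMSO replicate 1 and 8.39 in DMSO replicate 3. In pracinostat replicates 1, 2, 3 and 4 it lay at 6.75, 5.30, 8.70 and 6.01. The 9 loci held 114 ranked sites, of which 66 were higher and 48 lower with pracinostat, 36 had a summit in all 7 libraries and 9 had an IgG summit. In limma 2 of 33558 sites (0.00596%) passed, both lower with pracinostat and both outside these loci. At an unadjusted p under 0.05 there were 9 of the 114 sites (5 higher, 4 lower), or 7.90%, beside 4.91% of all sites, and the adjusted p of each of the 9 was 0.92. In the fit without DMSO replicate 2 all 9 kept their direction. They had been picked in a fit that includes the same remaining libraries, so this is no separate check. Without that library 5 of the 114 sites had an unadjusted p under 0.05 in limma, beside 3.94% of all sites. All 5 were among the 9. These 5 were the site inside P2ry12, both Cx3cr1 sites, the Siglech site and the shared end of Iscu and Sart3 described next. All site intervals are in mm10.

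In the P2ry12 and P2ry13 region, the site with an unadjusted p under 0.05 lay in the body of P2ry12, at chr3:59228562-59229164 and 34120 bases from its start. Its percentiles were 83.9, 91.9, 97.7 and 49.4 in pracinostat libraries, against 40.9, 51.3 and 44.9 in DMSO libraries. The 51.3 is the level shared by sites whose summit had the lowest score of DMSO replicate 2. In 3 pracinostat libraries the site lay well above all DMSO libraries, and pracinostat replicate 4 lay among them. The difference was 1.20 ± 0.50 with an unadjusted p of 0.016. A site 2012 bases from the P2ry12 start, at chr3:59260638-59261308, had 72.0, 65.7, 91.5 and 93.2 with pracinostat, against 87.7, 22.0 and 52.8 with DMSO, and overlapped between the groups. At the far edge of the locus, chr3:59312172-59313122 inside Med12l ranked highest over all libraries, at 67.9 ± 11.2 with pracinostat (n = 4) and 83.0 ± 12.5 with DMSO (SD, n = 3).

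Cx3cr1 had 2 such sites, both higher with pracinostat. A site at its 3′ end, chr9:120049296-120049897, had 90.7, 59.2, 59.7 and 93.8 with pracinostat, against 7.49, 22.0 and 67.8 with DMSO. DMSO replicates 1 and 2 had no summit there, and DMSO replicate 3 lay among the pracinostat libraries. The difference was 1.42 ± 0.50 with an unadjusted p of 0.0047 in limma. The other lay 5072 bases upstream of the start, at chr9:120073072-120073664, with 61.0, 70.8, 68.6 and 46.2 in pracinostat libraries, against 7.49, 22.0 and 17.7 in DMSO libraries. There DMSO replicates 1 and 2 had no summit, and the groups did not overlap. The difference was 1.35 ± 0.54 with an unadjusted p of 0.013 in limma. The strongest Cx3cr1 site, inside the gene at chr9:120054514-120055621, had 94.1 ± 1.93 with pracinostat (n = 4) and 91.5 ± 6.09 with DMSO (SD, n = 3).

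At Siglech the strongest site lay 5007 bases beyond the gene, at chr7:55784455-55785095, outside any protein-coding gene. It had 91.6, 83.5, 98.7 and 95.0 with pracinostat, against 77.7, 67.5 and 89.7 with DMSO, and the groups overlapped through DMSO replicate 3. The site with the low p was at the end of the neighbour Tubgcp5, at chr7:55793870-55794373, with 93.2, 95.8, 57.4 and 83.5 with pracinostat, against 38.5, 80.5 and 8.39 with DMSO. Its difference was 1.37 ± 0.50 with an unadjusted p of 0.0062. This is a gene end of Tubgcp5, a component of the gamma-tubulin complex, and its summit was the highest of the Siglech locus in pracinostat replicates 1 and 2 and in DMSO replicate 2.

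Tmem119 had 3 such sites. The nearest, chr5:113790730-113792242, lay 1487 bases from the gene and had 64.7, 73.9, 85.0 and 83.5 with pracinostat, against 52.2, 22.0 and 38.9 with DMSO. The groups did not overlap, and the difference was 1.09 ± 0.50 with an unadjusted p of 0.030. The other 2 were lower with pracinostat and belonged to neighbours. The shared end of Iscu, an iron-sulfur cluster scaffold, and Sart3 had 73.1 ± 14.3 with pracinostat (n = 4) and 97.2 ± 0.925 with DMSO (SD, n = 3), at chr5:113771091-113772275. A site inside Selplg, the selectin ligand that is itself a microglia gene, had 66.0 ± 30.0 with pracinostat and 92.9 ± 4.69 with DMSO, at chr5:113829840-113830769. Both were lower in every pracinostat library than in any DMSO library. The strongest site of the locus, chr5:113775502-113777465 at the end of Iscu, had 98.2 ± 1.92 with pracinostat and 96.6 ± 1.46 with DMSO. The next, chr5:113841677-113843671 at the end of Coro1c, had 83.95 ± 15.6 with pracinostat and 89.0 ± 6.46 with DMSO.

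Sall1 and Sparc each had 1 such site, both lower with pracinostat. In the body of Sall1, at chr8:89032232-89032732, percentiles were 16.5, 38.6, 8.70 and 6.01 with pracinostat, against 50.2, 67.5 and 47.6 with DMSO, a difference of -1.18 ± 0.58 with an unadjusted p of 0.044. The strongest Sall1 site, chr8:89040690-89041578, lay 3028 bases from the start. It had 68.6, 65.7, 89.8 and 49.4 with pracinostat, against 90.2, 22.0 and 44.9 with DMSO, where DMSO replicate 2 had no summit. Its difference was 0.40 ± 0.50 (adjusted p = 0.93 in limma), and -0.047 without DMSO replicate 2. Near Sparc the site lay inside Atox1, at chr11:55458143-55458643, with 19.3 ± 14.4 with pracinostat (n = 4) and 62.5 ± 16.6 with DMSO (SD, n = 3). The strongest site of the Sparc locus, chr11:55460506-55461757 at the end of Atox1, had 98.5 ± 1.48 with pracinostat and 95.9 ± 5.43 with DMSO. The next, chr11:55468009-55470319 at the end of G3bp1, had 96.6 ± 2.18 with pracinostat and 95.1 ± 4.135 with DMSO. Olfml3 and Gpr34 had no site with an unadjusted p under 0.05 in limma. The first of the Olfml3 3′ sites named above had 83.1 ± 12.2 with pracinostat (n = 4) and 69.2 ± 23.5 with DMSO (SD, n = 3). The site at the 5′ end, chr3:103736764-103738112, had 56.7 ± 20.05 with pracinostat and 73.7 ± 21.6 with DMSO.

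**Figure D4:**
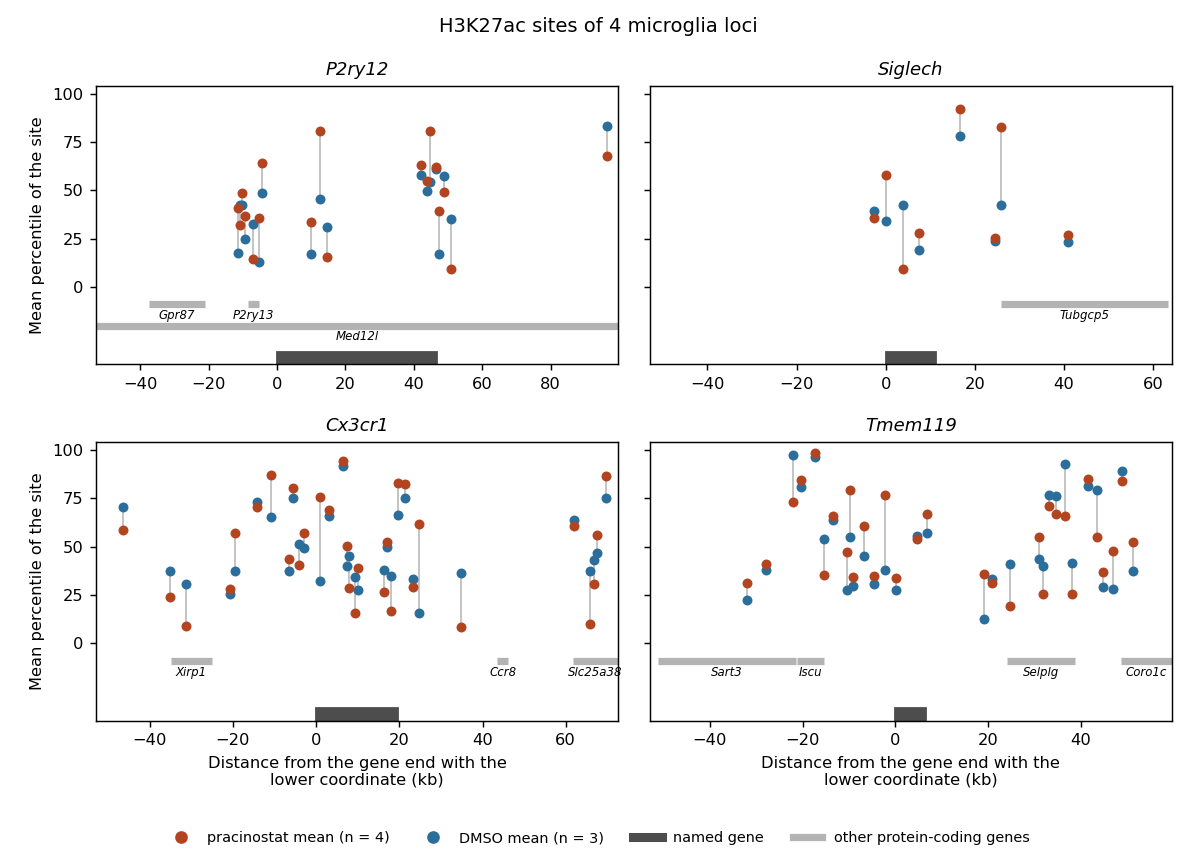
Mean percentile (vertical axes) of each ranked H3K27ac site against its distance in kb from the gene end with the lower coordinate (horizontal axes), in the loci of P2ry12, Siglech, Cx3cr1 and Tmem119. Red points are means of 4 pracinostat libraries, blue points of 3 DMSO libraries, a grey line joins them, the dark bar is the named gene and grey bars are other protein-coding genes. Sites of either direction lie side by side in each locus, and the strongest Cx3cr1 site lies at 94.1 with pracinostat and 91.5 with DMSO.

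Other genes of microglia lay in the same direction as the 9 at gene ends. Of 26 further microglia genes 24 were ranked, and 21 of the 24 had a higher fitted mean with pracinostat, beside 48.6% of all ranked genes. Of these, 3 had an unadjusted p under 0.05, beside 2.74% of all genes, and none passed. Over the loci 20 of 26 were higher, and 21 of 26 in summit number. The mean percentile of the 24 at gene ends was 63.1 to 69.7 in pracinostat libraries, against 53.4 to 60.3 in DMSO libraries, with a mean of 67.2 in pracinostat libraries against 58.7 in DMSO replicates 1 and 3, and the median difference was 0.31, beside -0.01 over all genes. The largest difference was that of Tgfbr1, a TGF-beta receptor chain, at 90.7 ± 12.4 with pracinostat (SD, n = 4) and 67.2 ± 41.9 with DMSO (SD, n = 3). Its DMSO libraries thus lay far apart, and values without DMSO replicate 2 are not given for single genes of the lists. Ltc4s, leukotriene C4 synthase, came next, at 95.2 ± 3.60 with pracinostat and 78.8 ± 9.11 with DMSO. Selplg and Trem2 were furthest in the other direction, at -0.32 each. The 9 genes and the lists were chosen with earlier results of these data known, so their direction is no independent evidence. The 9 genes themselves averaged 53.6 to 70.8 with pracinostat, against 43.6 to 49.8 with DMSO. Their mean was 60.2 over the pracinostat libraries, against 48.7 over DMSO replicates 1 and 3.

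At gene ends most ranked neutrophil markers had a lower fitted mean with pracinostat, and over their loci most had a higher one. Of 12 neutrophil genes 9 were ranked at gene ends, and 8 of the 9 had a lower fitted mean with pracinostat, beside 51.4% of all ranked genes. Of these, 3 had an unadjusted p under 0.05, beside 3.42% of all genes that were lower at that p. Their mean percentile over the 4 pracinostat libraries was 22.8, against 36.7 over the 3 DMSO libraries and 32.9 over DMSO replicates 1 and 3. Ly6g and Retnlg had no end summit in any library. In locus rank 9 of the 12 were higher and 3 lower with pracinostat, with a median difference of 0.14, and in summit number 4 of 7 ranked genes were higher and 3 lower. Cxcr2, the chemokine receptor by which neutrophils leave the bone marrow, had 12.8 ± 6.87 at gene ends with pracinostat (SD, n = 4) and 45.7 ± 14.6 with DMSO (SD, n = 3), a difference of -1.10 (adjusted p = 0.70). Over its locus it had 51.6 ± 9.18 with pracinostat and 33.5 ± 7.21 with DMSO, a difference of 0.47 (adjusted p = 0.89). Of 10 markers of border-associated macrophages 6 were lower at gene ends with pracinostat and 4 over the loci, with gene-end list means of 25.1 to 39.2 in pracinostat libraries against 36.9 to 41.6 in DMSO libraries, and of 32.7 over the pracinostat libraries against 40.3 over DMSO replicates 1 and 3. Pf4, a chemokine of platelets and of macrophages at brain borders, had the largest gene-end difference of this list. It had 19.97 ± 13.2 with pracinostat and 65.2 ± 24.5 with DMSO (-1.40, adjusted p = 0.49 in limma). Cbr2 and Stab1 were furthest in the other direction at gene ends, at 0.38 and 0.29. Over the loci the largest difference was that of Folr2, at 1.09 (adjusted p = 0.89), and Pf4 had -0.85 (adjusted p = 0.85). Of 10 ranked markers of monocyte-derived macrophages 7 were lower at gene ends, and 6 of 12 over the loci, with gene-end list means of 33.7 to 49.8 in pracinostat libraries against 40.9 to 56.1 in DMSO libraries, and of 42.6 over the pracinostat libraries against 48.5 over DMSO replicates 1 and 3. None of these genes passed the test in limma. The part of these lists in the values of the 9 genes was not tested.

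Lists of markers of astrocytes, of endothelial and mural cells and of oligodendrocytes, cells outside the CD11b gate, had lower gene-end means than the 9 genes in each library, except the oligodendrocyte list in DMSO replicate 2. For astrocytes 4 of 10 genes were ranked, with list means of 20.7 to 33.6 with pracinostat and 19.0 to 21.3 with DMSO, and Sox2 had no end summit in any library. For endothelial and mural cells 7 of 10 were ranked, with 18.6 to 29.9 with pracinostat and 10.7 to 30.7 with DMSO. For the oligodendrocyte lineage 4 of 8 were ranked, with 21.7 to 34.8 with pracinostat and 24.6 to 52.7 with DMSO, where the 52.7 is DMSO replicate 2 and lies above the 43.6 of the 9 genes in that library. Mbp, a myelin protein, had 62.2 ± 17.7 with pracinostat (SD, n = 4) and 58.4 ± 15.6 with DMSO (SD, n = 3), and Kdr, a VEGF receptor of endothelial cells, had 55.0 ± 5.34 with pracinostat and 65.2 ± 32.2 with DMSO. Olig1 had no end summit in any library. The 9 dendritic cell genes averaged 41.3 to 54.5 with pracinostat and 32.6 to 50.4 with DMSO, with 6 higher and 3 lower. Sparc is known from astrocytes and endothelial cells and Siglech from plasmacytoid dendritic cells, and the part of those cells in their values was not tested.

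**Figure D5:**
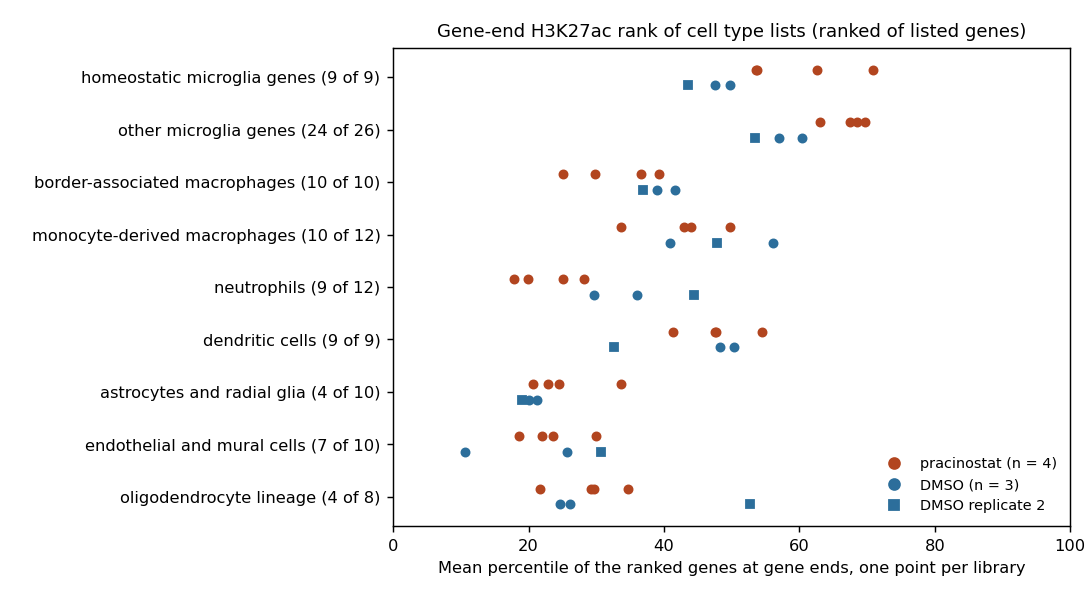
Mean gene-end percentile of the ranked genes of each list (horizontal axis, 0 to 100), with lists down the vertical axis and the numbers of ranked and listed genes in brackets. Each point is a library (4 pracinostat above 3 DMSO), with DMSO replicate 2 as a square. Both microglia lists lie to the right with pracinostat (53.6 to 70.8 and 63.1 to 69.7), and neutrophil genes lie to the left (17.8 to 28.1), at gene ends.

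The genes whose end rank was most like the mean of the 9 genes over the 7 libraries were Arhgef40, LTO1 and Gigyf1, with Pearson correlations of 0.988, 0.978 and 0.974 of their normal scores. They were picked as the highest of all ranked genes, and the 7 points share depth and the ties of DMSO replicate 2.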

How the data were processed

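Each H3K27ac or IgG library had 1 deposited summit list with a −log10 significance value per summit, not normalized between libraries; no source used here says if it is a p or q value. The submitters' processing notes name Bowtie2, MACS2 (2.2.9.1), HOMER, DESeq2 and build mm10. For their roles, the calling threshold and any use of IgG in calling: not given in the sources used here. Peaks had been called per library.

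Genes came from a RefSeq table of GRCm38.p6, the assembly of mm10, which gives no strand; starts came from a RefSeq promoter table. The highest summit score within 1 kb of either gene end, over the span plus 50 kb, or per site was ranked within each library and turned into normal scores, for features with a summit in at least 3 of 7 libraries. Pracinostat was compared with DMSO by limma 3.58.1 (trended, robust variance; statmod 1.5.0; R 4.3.3) with Benjamini-Hochberg adjustment over all features. Summit numbers used the 18000 highest-scoring summits and log2(number + 0.5). Ranks are relative, so a change at all sites alike would not show. The procedure was tested on simulated data.

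The genes and lists were chosen with earlier results of these data known. Named in the text were all 9 genes, some neighbouring genes and the 3 most similar genes. In each locus the sites with an unadjusted p under 0.05 in limma were named. With them stood up to 2 sites of highest mean percentile, none of them at Gpr34, and the sites at the ends of Olfml3. In each list up to 2 genes of largest difference per direction were named. Genes singled out for lacking a summit were named after their values were seen. Alternatives were other windows, flanks, list lengths and filters, array weights, no trend, summit number as covariate, a block by replicate number and leaving out each library.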

Additional observations from a re-analysis of the deposited data

Results flagged for a closer look

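In pracinostat libraries the gene-end percentile of Gpr34 had 1 sample far from the others. Replicate 1 was at 38.3, while the other 3 libraries lay between 15.9 and 18.3, so the gap to the nearest library took 0.894 of the whole range. Chance marks about 1 in 20 groups of this size in this way. The pracinostat values of every gene were screened in each measure, and only this group was marked. A single mark among so many groups can arise by chance.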

How the results depend on the processing

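None of 419 values of the 9 genes under the alternatives passed the adjusted p of 0.05: 366 kept the direction given above, 48 turned and 5 were 0, all in summit number (4 at Gpr34 and 1 at Sall1). Differences are in normal-score or log2 units, pracinostat minus DMSO. At gene ends P2ry12 was -0.077 and Cx3cr1 -0.019 with summit number as a covariate, Gpr34 was -0.10 and Olfml3 -0.078 in 500 bp windows, and Olfml3 was -0.54 at the 5′ end alone, an alternative chosen after the data were seen. Over the loci Olfml3 and Sparc had differences close to 0 and turned most often, Olfml3 to 0.25 with the 18000 highest-scoring summits, 0.014 with 25 kb flanks, 0.17 with array weights, 0.072 with distal summits and 0.51 with the covariate, and Sparc to 0.22 with 25 kb flanks, 0.0275 with array weights, 0.17 with distal summits and 0.40 with the covariate. Sall1 was -0.10 with the 18000 highest-scoring summits and -0.094 with array weights, and Cx3cr1 was -0.18 with 100 kb flanks. The median over the 9 loci was 0.25, 0.22 and 0.27 with the 18000 highest-scoring summits, 25 kb flanks and the covariate. In summit number Sparc was -0.14 among the 10000 highest-scoring summits, Gpr34 -0.073 and Olfml3 -0.26 among 30000, and Tmem119 -0.069 with the covariate.

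With 1 library left out at a time, gene-end differences ran from -0.10 to 0.575 at P2ry12, -0.20 to 0.60 at Olfml3 and -0.045 to 1.17 at Sparc. Locus differences ran from -0.14 to 0.30 at P2ry12, -0.037 to 0.10 at Gpr34, -0.19 to 0.31 at Sall1, -0.29 to 0.50 at Olfml3 and -0.66 to 0.29 at Sparc, with a median of 0.048 to 0.29. Summit number ran from -0.079 to 0.28 at Tmem119, -0.27 to 0.94 at Sall1, -0.60 to 1.25 at Olfml3 and -0.11 to 0.39 at Sparc. P2ry13 and Siglech kept their direction in every alternative run, but the size varied. P2ry13 ran from 0.097 to 0.67 at gene ends, 0.48 to 1.10 over the loci and 0.22 to 1.90 in summit number. Its lowest locus value came with 100 kb flanks, and its lowest summit number difference among the 30000 highest-scoring summits. Siglech ran from 0.42 to 0.78 at gene ends, 0.66 to 1.10 over the loci and 0.13 to 0.98 in summit number. The number of genes past the threshold at gene ends, 0 above, was 0 to 4 with 1 library left out (4 without DMSO replicate 3, 1 without pracinostat replicate 2), 1 with the 18000 highest-scoring summits, 2 in 500 bp windows, 1 with a summit required in all 7 libraries and 2 with a summit in at least 1. Over loci it was 0 to 2 (2 without DMSO replicate 3). The 2 sites past it became 0 to 3 with 1 library left out (0 without DMSO replicate 2, pracinostat replicate 1 or pracinostat replicate 3), 1 with array weights, 0 without a variance trend and 0 with the covariate. The causes of these shifts were not tested.

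Libraries with the same replicate number did not deviate together, with correlations of -0.05 to 0.07. These values gave no sign that the numbers pair the samples, but ranks within a library cannot exclude it. With the number as a block, the replicate block left 0 genes past the threshold at gene ends and turned Olfml3 to 0.12 and Sparc to 0.042 over the loci. Pracinostat replicate 4 stands alone in its block and adds nothing there. Some genes had too few summits for a value: Gpr34, Siglech and Sall1 at gene ends with the 18000 highest-scoring summits, P2ry13, Gpr34, Siglech, Sall1 and Sparc with a summit required in all 7 libraries, Gpr34 and Tmem119 at 5′ ends, Gpr34 in summit number with 10000 summits or 25 kb flanks, and Sall1 with 10000 summits.

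Scores depend on sequencing depth, known here only through summit numbers, and DMSO replicate 2 had the fewest. With 4 libraries against 3, the SE of a gene-end difference was 0.35 to 0.42 for the 9 genes, so differences of that size were not detectable. Ranks do not show a change shared by all sites.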
